A study of Mus musculus with 8 samples.

Results

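Expression of 10 genes of resident macrophages and of complement C1q was followed in mouse colon. The genes were Adgre1, Csf1r, Cd68, Cd163, Cx3cr1, Itgax and Lyz2, which mark macrophages and related myeloid cells, and C1qa, C1qb and C1qc, which encode the chains of C1q. They were found by matching these symbols to the Ensembl identifiers of the deposited count table through a mouse annotation of the same genome build, and all 10 were present, each as 1 of 52636 rows. The study colonized germ-free mice with yeast, and the samples were colon of wild-type C57BL/6 females aged 6 weeks, housed in isolators. The groups were C. albicans SC5314 (3 libraries) and C. tropicalis MYA-3404 (2 libraries), each given by mouth at 100000000 colony-forming units (CFU), and control (3 libraries). Colon was taken at day 30, and what the control mice were given by mouth is not stated. Replicates are numbered in the labels with no word on which animal gave which library. The p-values therefore rest on library-to-library spread, part of which could be technical.

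Resident macrophages of the gut lie under the epithelium and between the muscle layers, where they take up microbes and dying cells. They depend on signalling through CSF1R, the receptor for the growth factors CSF1 and IL-34, and in the adult colon most are renewed from blood monocytes, gaining CX3CR1 and F4/80 (the product of Adgre1) and, as they mature, CD163. C1q is the recognition protein that starts the classical complement pathway. Its A, B and C chains assemble in equal numbers into collagen-like stalks with globular heads, and in most tissues macrophages are its main source.

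The 3 C1q genes lie side by side on the minus strand of chromosome 4 (GRCm38), within 18.7 kb. C1qb (ENSMUSG00000036905) spans 136880129 to 136886187, C1qc (ENSMUSG00000036896) 136889804 to 136893065 and C1qa (ENSMUSG00000036887) 136895917 to 136898803. Lyz2 (ENSMUSG00000069516), the lysozyme gene of macrophages, lies on chromosome 10 from 117277331 to 117282321, with its copy Lyz1, the lysozyme gene of Paneth cells, 5475 bases away on the same strand. Promoter windows of 300 bases (250 before and 50 after the RefSeq start site, build GRCm38.p6) matched 7 of the 10 genes and Lyz1. A motif chosen after the sequences had been read, AGGAAGT, which holds the GGAA core bound by ETS factors such as the macrophage regulator PU.1, was searched on both strands. It was found once in each of the windows of C1qb, C1qc and Lyz2, and in none of those of Cd68, Cd163, Cx3cr1 and Itgax. Of 32851 mouse promoter windows of the same length, 9.35% held it. The stretches that hold it are shown because C1qb and C1qc ran in parallel over these libraries and because Lyz2 and Lyz1 share sequence. Each is read 5′ to 3′ on the minus strand, ends before the first annotated exon, and has in capitals the motif as read on its other strand.
C1qb, chr4:136886201-136886350: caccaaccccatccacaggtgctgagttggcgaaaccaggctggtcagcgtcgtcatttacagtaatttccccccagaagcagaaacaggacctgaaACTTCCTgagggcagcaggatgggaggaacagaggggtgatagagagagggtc
C1qc, chr4:136893066-136893164: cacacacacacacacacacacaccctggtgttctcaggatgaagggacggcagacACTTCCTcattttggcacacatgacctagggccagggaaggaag
Lyz2, chr10:117282322-117282471: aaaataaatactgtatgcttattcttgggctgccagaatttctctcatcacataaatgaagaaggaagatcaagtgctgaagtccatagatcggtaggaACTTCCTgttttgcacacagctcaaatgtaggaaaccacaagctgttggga
Lyz1, chr10:117292869-117293018: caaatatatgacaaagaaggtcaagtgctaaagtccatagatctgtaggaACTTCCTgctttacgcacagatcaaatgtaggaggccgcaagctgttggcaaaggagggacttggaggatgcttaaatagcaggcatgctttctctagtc
The match in Lyz2 and in Lyz1 began at the same distance, 100 bases before the start site, and the full windows of these 2 genes were identical in 254 of 310 aligned positions (81.9%). Those of C1qb and C1qc were identical in 171 of 353 (48.4%). A match is a description of the letters and not of a factor bound there.

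Library totals lay between 16195376 and 19761098 counts, and 16107 genes, with all 10 of these among them, had enough counts to be tested. Colon epithelium was present in every library, with all 15 marker genes tested and a summed level of 23836 to 34667 CPM (counts-per-million, scaled for library composition). Smooth muscle differed widely between libraries. Its 18 genes summed to 17683, 14322 and 9213.8 CPM in control 1, 2 and 3, to 12753, 36382 and 20552 with C. albicans and to 5333.8 and 7010.5 with C. tropicalis, so both C. tropicalis libraries held the least. One control also stood apart in the epithelium. Cdx2, a transcription factor gene of intestinal epithelium, was at 339, 192 and 26.9 CPM in control 1, 2 and 3, at 224, 470.1 and 378 with C. albicans and at 26.3 and 28.6 with C. tropicalis. Guca2a, which encodes guanylin, was at 190.4 CPM in control 3 and 189 and 226 with C. tropicalis, against 1669 to 3475 in the other 5 libraries. Car1, a carbonic anhydrase gene, was at 1602 CPM in control 3 and 2232 and 2255 with C. tropicalis, against 179.5 to 432 in the others. Control 3 was thus close to both C. tropicalis libraries in these 3 genes and unlike the other controls, and the part of this in the results was not tested. Estimates without control 3 are therefore given too. In whole colon, fewer cells of a type and less RNA per cell cannot be told apart.

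Levels of the 10 genes were compared with each other per kilobase of exon. Lyz2 was the most abundant, at 117.7 ± 44.5 CPM per kb (SD, n = 8 libraries), and it lay above 97.3% of tested genes. The C1q chains followed, with C1qa at 51.98 ± 9.71, C1qb at 33.3 ± 7.67 and C1qc at 23.0 ± 6.51 CPM per kb. Below them came Cd68, which encodes a glycoprotein of lysosomes and endosomes, at 5.73 ± 2.15, Csf1r at 5.02 ± 1.57 and Itgax, the integrin chain CD11c of dendritic cells and gut macrophages, at 2.96 ± 0.976 CPM per kb. Adgre1 (1.54 ± 0.403), the fractalkine receptor gene Cx3cr1 (1.29 ± 0.304) and the haemoglobin scavenger receptor gene Cd163 (0.700 ± 0.249 CPM per kb) were the lowest, and Cd163 lay above 20.2% of tested genes. The neighbours Cd68 and Csf1r, and Adgre1 and Cx3cr1, differed by less than their SD. The order of C1qb and C1qc depended on the length used, since the longest transcript in place of all exons put C1qc at 36.9 CPM per kb. Cd68 and Csf1r changed order as well, at 5.86 and 6.16 CPM per kb with the longest transcript.

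The C1q chains did not separate the groups. C1qa stood at 37.1, 53.6 and 63.5 CPM in control 1, 2 and 3, at 58.1, 58.1 and 44.5 CPM with C. albicans, and at 67.95 and 49.6 CPM with C. tropicalis. C1qb stood at 23.1, 37.7 and 40.1 CPM in control, at 44.7, 34.7 and 30.4 with C. albicans, and at 48.6 and 30.2 with C. tropicalis. C1qc stood at 22.2, 43.2 and 51.5 CPM in control, at 52.7, 49.5 and 36.5 with C. albicans, and at 63.0 and 36.8 with C. tropicalis. For all 3 chains, control 1 was the lowest of the 8 libraries and C. tropicalis 1 the highest, and every colonized library lay above control 1.

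Relative to control, the log2 fold changes with C. albicans were 0.06 ± 0.21 for C1qa, 0.12 ± 0.25 for C1qb and 0.25 ± 0.31 for C1qc (SE, n = 3 and 3; edgeR adjusted p = 0.902, 0.829 and 0.706). With C. tropicalis they were 0.19 ± 0.24, 0.23 ± 0.28 and 0.36 ± 0.35 (n = 3 and 2; edgeR adjusted p = 0.720, 0.723 and 0.635). For C1qa the 95% interval of the fold ran from 0.745 to 1.46 with C. albicans and from 0.787 to 1.66 with C. tropicalis. For C1qc it reached from 0.728 to 1.93 and from 0.745 to 2.20. Without control 1 the C. albicans estimates turned to -0.13, -0.09 and -0.03, and without control 3 they were 0.24, 0.27 and 0.50. Those of C. tropicalis turned to -0.05, -0.15 and -0.08 without C. tropicalis 1, and were 0.37, 0.37 and 0.61 without control 3.

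The chains varied less in proportion to each other than in level. The ratio of C1qb to C1qa (CPM over CPM) ran from 0.597 to 0.770 over the 8 libraries, a range of 1.29 times, where C1qa itself ranged 1.83 times and C1qb 2.101 times. The ratio of C1qc to C1qa ran from 0.599 in control 1 to 0.928 in C. tropicalis 1, a range of 1.55 times, and that of C1qc to C1qb ranged 1.485 times, where C1qc itself ranged 2.84 times. The mean ratio of C1qb to C1qa was 0.653 ± 0.0439 in control, 0.683 ± 0.0864 with C. albicans and 0.662 ± 0.0754 with C. tropicalis (SD, n = 3, 3 and 2), and these means differed by less than the SD of either colonized group. The mean ratio of C1qc to C1qa was 0.739 ± 0.121 in control, 0.860 ± 0.0428 with C. albicans and 0.835 ± 0.131 with C. tropicalis. Control thus lay lower by about its own SD, with control 1 the lowest of the 8 libraries. No exact stretch of 50 bases was shared between the transcripts of any pair of the chains.

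**Figure D1:**
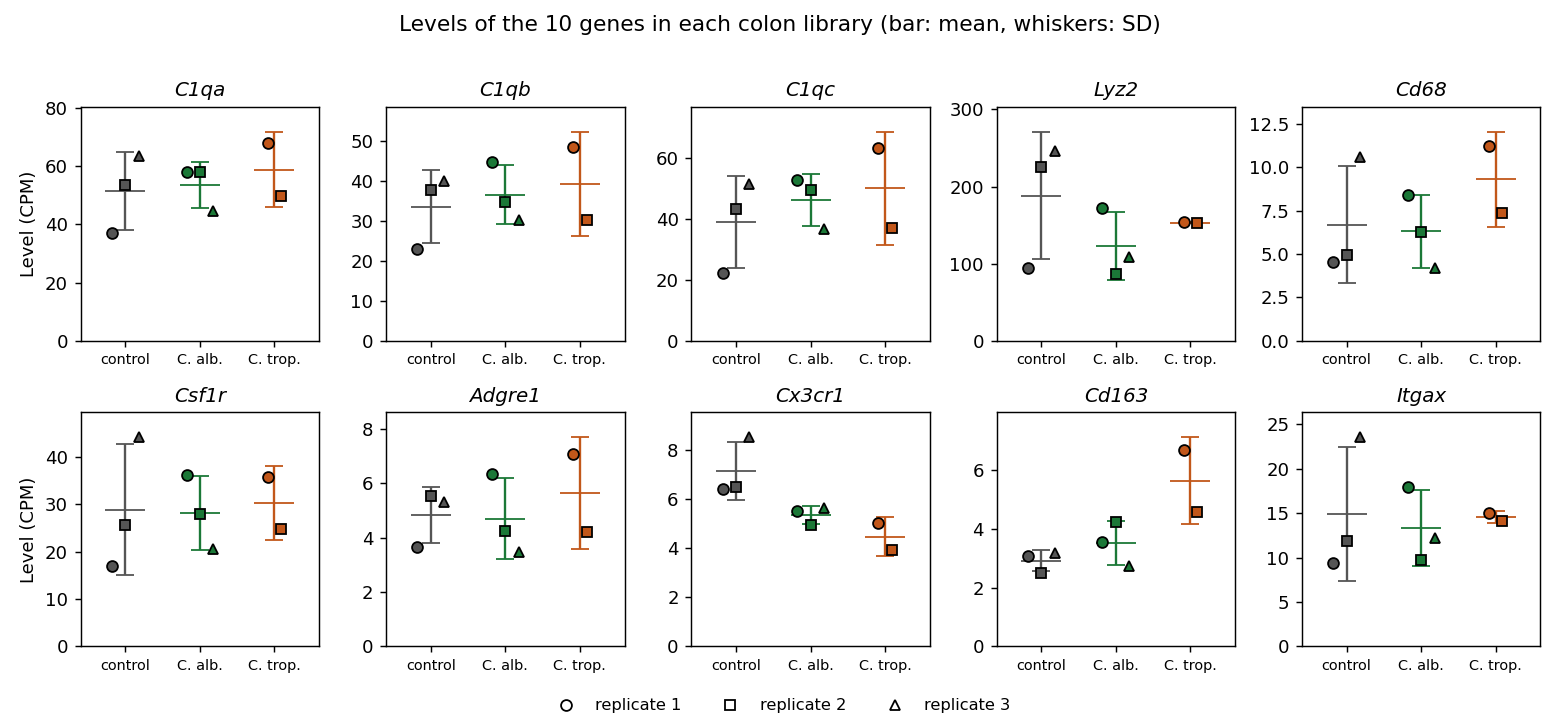
Level in CPM (y axis, from 0) of each of the 10 genes in the 8 colon libraries, by group (x axis), with symbols for the replicate number, a bar for the mean and whiskers for the SD. The groups overlap for 8 of the 10 genes in both comparisons with control, and Cx3cr1 and Cd163 are the exceptions. Of all tested genes, 19.4% did not overlap control with C. albicans and 32.5% with C. tropicalis.

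Csf1r (ENSMUSG00000024621, chromosome 18 from 61100598 to 61132149) stood at 16.9, 25.6 and 44.0 CPM in control 1, 2 and 3, at 36.2, 27.8 and 20.6 with C. albicans and at 35.8 and 24.7 with C. tropicalis. The controls thus covered the range of all 5 colonized libraries. The log2 fold changes against control were -0.03 ± 0.34 with C. albicans and 0.07 ± 0.38 with C. tropicalis (SE; edgeR adjusted p = 0.970 and 0.944). Without control 3 they were 0.41 and 0.51 (edgeR adjusted p = 0.512 and 0.377). Exons of Csf1r and of Hmgxb3, on the opposite strand, overlap, and the libraries do not keep the strand, so reads in that stretch could belong to either gene.

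Adgre1 (ENSMUSG00000004730, chromosome 17 from 57358691 to 57483527) stood at 3.66, 5.54 and 5.32 CPM in control, at 6.35, 4.25 and 3.48 with C. albicans and at 7.08 and 4.19 with C. tropicalis. Cd68 (ENSMUSG00000018774, chromosome 11 from 69664213 to 69666153) stood at 4.57, 4.94 and 10.6 CPM in control, at 8.43, 6.30 and 4.21 with C. albicans and at 11.25 and 7.37 with C. tropicalis. In both genes C. tropicalis 1 was the highest library and C. albicans 3 the lowest, with the controls between them. Cd68 had log2 fold changes of -0.09 ± 0.38 with C. albicans and 0.47 ± 0.42 with C. tropicalis (SE; edgeR adjusted p = 0.920 and 0.604), and Adgre1 of -0.04 ± 0.32 and 0.22 ± 0.35 (edgeR adjusted p = 0.955 and 0.786). With C. tropicalis, Cd68 reached 0.97 and Adgre1 0.29 without control 3 (edgeR adjusted p = 0.185 and 0.727).

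Itgax (ENSMUSG00000030789, chromosome 7 from 128129547 to 128150657) stood at 9.37, 11.9 and 23.5 CPM in control, at 17.99, 9.76 and 12.2 with C. albicans and at 15.0 and 14.1 with C. tropicalis. Control 1 was the lowest library and control 3 the highest, a ratio of 2.51. Log2 fold changes were -0.17 ± 0.34 with C. albicans and -0.04 ± 0.39 with C. tropicalis (SE; edgeR adjusted p = 0.827 and 0.971), and they turned to 0.32 and 0.45 without control 3.

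Lyz2 had the widest range, 2.85 times between its lowest and highest library. It stood at 93.96, 225 and 247 CPM in control, at 172, 86.6 and 109 with C. albicans and at 154 and 152 with C. tropicalis. Control 2 and control 3 were the highest libraries, control 1 and C. albicans 2 the lowest, and the groups overlapped. The log2 fold change was -0.62 ± 0.36 with C. albicans (a fold of 0.650, 95% interval 0.372 to 1.13, edgeR adjusted p = 0.410) and -0.30 ± 0.40 with C. tropicalis (0.813, 0.436 to 1.52, edgeR adjusted p = 0.744). The estimate with C. albicans was -0.94 without control 1 and -0.38 without control 3, and that with C. tropicalis was -0.06 without control 3.

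Levels of Lyz2 kept a nearly constant ratio to genes of antigen presentation. The 10 genes of the MHC class II list serve the display of peptides to CD4 T cells. They summed to 585, 1438 and 1714 CPM in control 1, 2 and 3, to 1168, 635 and 775 with C. albicans and to 992 and 1072 with C. tropicalis. Lyz2 divided by this sum was 0.161, 0.156 and 0.144 in control, 0.147, 0.136 and 0.141 with C. albicans and 0.155 and 0.142 with C. tropicalis. The ratio thus ran only from 0.136 to 0.161 in all 8 libraries. Of the gene lists compared, this one had the highest correlation with Lyz2 in log2 level (Pearson r = 0.982). Lyz2 was nearly as close to dendritic cell genes (0.955) and to B cell and follicle genes (0.954), with other genes of gut macrophages at 0.875. B cell and follicle genes, of which 17 were tested, moved in the same direction and over a wider range, with sums of 49.9, 416 and 562 CPM in control, 150.4, 37.2 and 132 with C. albicans and 149 and 204 with C. tropicalis. Their part in the differences of Lyz2 was not tested.

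Lyz1 stood at 5.31, 19.3 and 23.3 CPM in control, at 12.4, 2.89 and 9.57 with C. albicans and at 11.99 and 14.1 with C. tropicalis, which is 3.33% to 9.47% of the level of Lyz2. Its 2 highest and its 2 lowest libraries were those of Lyz2. Of the 50-base stretches in the Lyz2 transcript 15.4% also occur in Lyz1, a larger share than the level of Lyz1 relative to Lyz2. How reads from such shared stretches were counted is not given. Whether reads of Lyz2 add to the counts of Lyz1, and to its order of libraries, was not tested. The Paneth cell defensin genes Defa17, Defa24 and Defa30 had 0 counts in every library, which allows up to 0.152 to 0.185 CPM in a library. Of the other genes of that list, Ang4, an angiogenin gene, ranged from 0.753 CPM in control 3 to 175 CPM in C. albicans 3, while Itln1, Pla2g2a and Mmp7 had 116, 109 and 21 counts in the 8 libraries together.

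**Figure D2:**
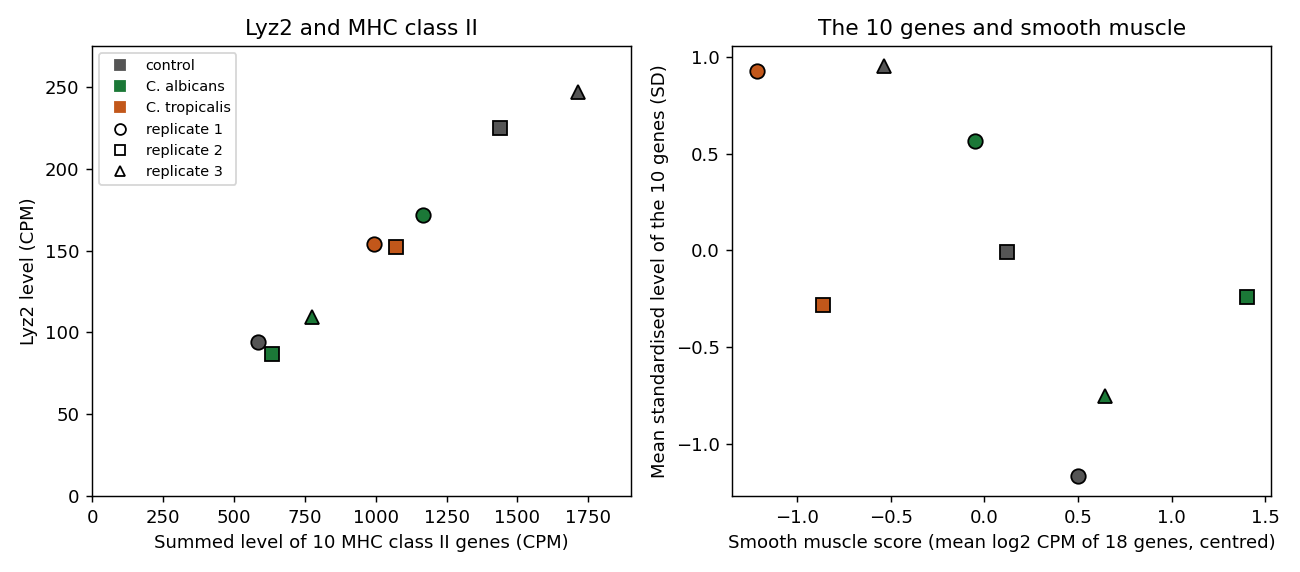
Left: Lyz2 level (y axis, CPM) against the summed level of 10 MHC class II genes (x axis, CPM). Right: the mean standardised level of the 10 macrophage and C1q genes (y axis, in SDs) against the smooth muscle score (x axis, log2 scale). Each point is a library, coloured by group and shaped by replicate. Lyz2 runs from 86.6 to 247 CPM while its ratio to MHC class II stays between 0.136 and 0.161. The mean of the 10 genes is lowest in control 1 and C. albicans 3 and highest in control 3 and C. tropicalis 1. Single genes can differ from this mean, as Cx3cr1 does at 0.53 SD in control 1 and -0.52 SD in C. tropicalis 1.

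Cd163 and Cx3cr1 were the members whose groups stood apart from control, in opposite directions, and neither passed the test. Of all tested genes, 19.4% stood apart from control with C. albicans and 32.5% with C. tropicalis, so such separation was not particular to these genes. Cd163 (ENSMUSG00000008845, chromosome 6 from 124304656 to 124330527) stood at 3.08, 2.502 and 3.17 CPM in control, at 3.54, 4.25 and 2.74 with C. albicans and at 6.68 and 4.59 with C. tropicalis. Both C. tropicalis libraries lay above all 6 others, and the C. albicans libraries overlapped the controls. The difference of C. tropicalis from control was 0.95 ± 0.30 on the log2 scale (a fold of 1.93, 95% interval 1.21 to 3.06; unadjusted p = 0.0108, edgeR adjusted p = 0.242). Against C. albicans it was 0.68 ± 0.30 (1.60-fold, 95% interval 1.01 to 2.54; unadjusted p = 0.0468, edgeR adjusted p = 0.208). The gene rests on 42 to 117 counts per library. Counting error alone spans 3.65 to 5.70 CPM for C. tropicalis 2 and 2.42 to 4.09 CPM for control 3 (exact Poisson 95% intervals).

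Cx3cr1 (ENSMUSG00000052336, chromosome 9 from 119901616 to 120069879) stood at 6.40, 6.49 and 8.50 CPM in control, at 5.51, 4.93 and 5.61 with C. albicans and at 5.03 and 3.91 with C. tropicalis. All 5 colonized libraries lay below all 3 controls. The log2 difference from control was -0.41 ± 0.21 with C. albicans (a fold of 0.750, 95% interval 0.537 to 1.05; unadjusted p = 0.0837, edgeR adjusted p = 0.371). With C. tropicalis it was -0.67 ± 0.24 (0.627, 95% interval 0.428 to 0.918; unadjusted p = 0.0217, edgeR adjusted p = 0.268). These 2 comparisons share the controls. C. tropicalis differed from C. albicans by -0.26 ± 0.24 (edgeR adjusted p = 0.570). Counts ran from 69 to 158 per library, and 31 counts in all fell to Gm33858, which overlaps its exons on the other strand.

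Both genes kept their direction in all alternatives tried, which included leaving out each library. Cd163 with C. tropicalis ran from 0.65 (without C. tropicalis 1) to 1.20 (without C. tropicalis 2), and Cx3cr1 from -0.94 with a smooth muscle score as covariate to -0.50 without C. tropicalis 2. The muscle score was lowest in the C. tropicalis libraries, so the fit with it cannot tell group from muscle content. Without control 3 they were 1.01 and -0.53 (edgeR adjusted p = 0.157 and 0.285). Against control 3 alone, both C. tropicalis libraries were higher in Cd163 and lower in Cx3cr1. Relative to Csf1r, as a ratio of CPM, Cd163 stood at 0.182, 0.098 and 0.0720 in control, and at 0.187 and 0.186 with C. tropicalis, so that control 1 lay close to the C. tropicalis libraries. Cx3cr1 over Csf1r stood at 0.378, 0.254 and 0.193 in control, at 0.152, 0.177 and 0.272 with C. albicans and at 0.140 and 0.158 with C. tropicalis. The C. tropicalis libraries stayed below the controls in that ratio, while the C. albicans libraries overlapped them.

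**Figure D3:**
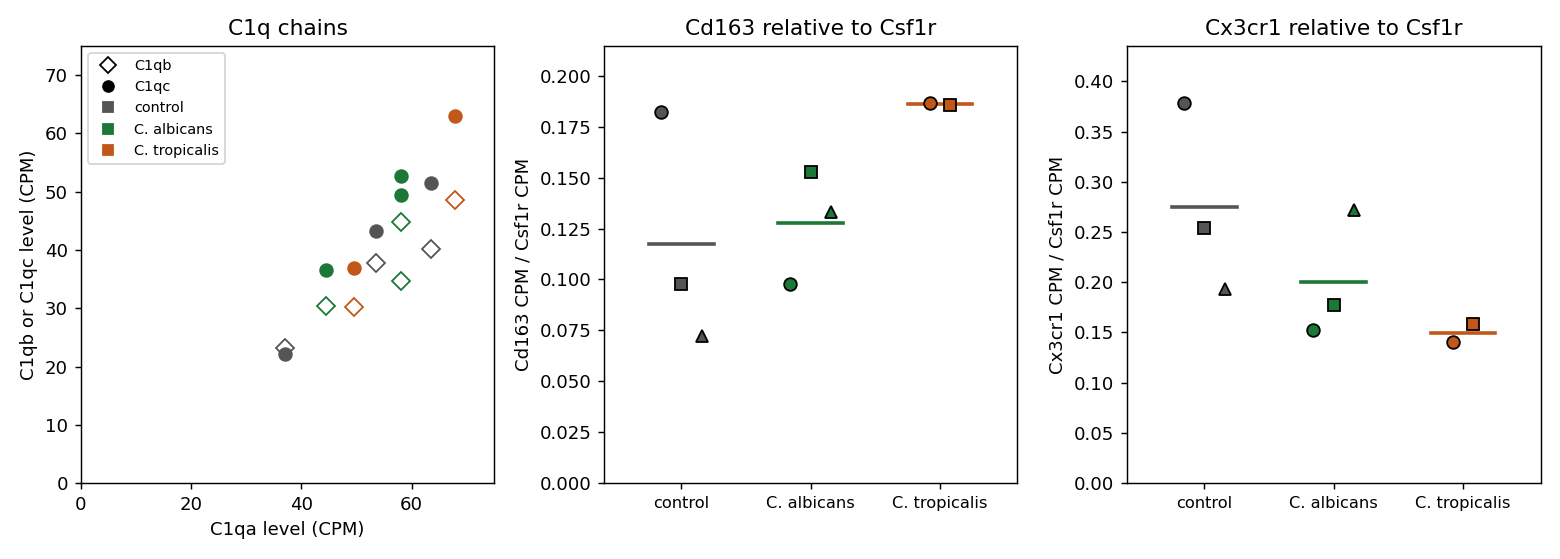
Left: levels of C1qb (diamonds) and C1qc (circles) against C1qa, in CPM, for the 8 libraries. Middle and right: Cd163 and Cx3cr1 divided by Csf1r (ratio of CPM) by group, with a line at each mean and symbols for replicates 1 (circle), 2 (square) and 3 (triangle). C1qb follows C1qa at a ratio of 0.597 to 0.770, and for Cd163 over Csf1r control 1, at 0.182, lies just below the C. tropicalis libraries, at 0.187 and 0.186.

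Counted over the 10 genes, none passed in any comparison. With C. albicans against control, 0 of 10 passed by edgeR where 0.0435% of all tested genes did (7 of 16107), and 0 of 10 had an unadjusted p under 0.05 against 15.4% of all genes. Here 4 genes lay above control (48.2% of all genes did) and 6 below (51.8%), with a median log2 fold change of -0.04 beside -0.02 over all tested genes. The libraries did not overlap for 1 gene, Cx3cr1, against 19.4% of all genes. With C. tropicalis against control, 0 of 10 passed where 0.0310% of all genes did (5), and 2 had an unadjusted p under 0.05 against 15.4%. Here 7 lay above (47.9% of all genes) and 3 below (52.1%), with a median of 0.21 beside -0.02, and 2 did not overlap against 32.5% of all genes. With C. tropicalis against C. albicans, 0 of 10 passed, as did 0 of all 16107 genes, and 1 had an unadjusted p under 0.05 against 23.2%. Here 9 lay above (53.7% of all genes) and 1 below (46.3%; median 0.13 beside 0.04), and 1 did not overlap against 45.9%. DESeq2 and limma-voom also called 0 of the 10 in each comparison. Of these shares, 1 counted at an unadjusted p under 0.05 was above that of all genes (2 of 10 with C. tropicalis against control), and the shares whose libraries did not overlap were all below.

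**Figure D4:**
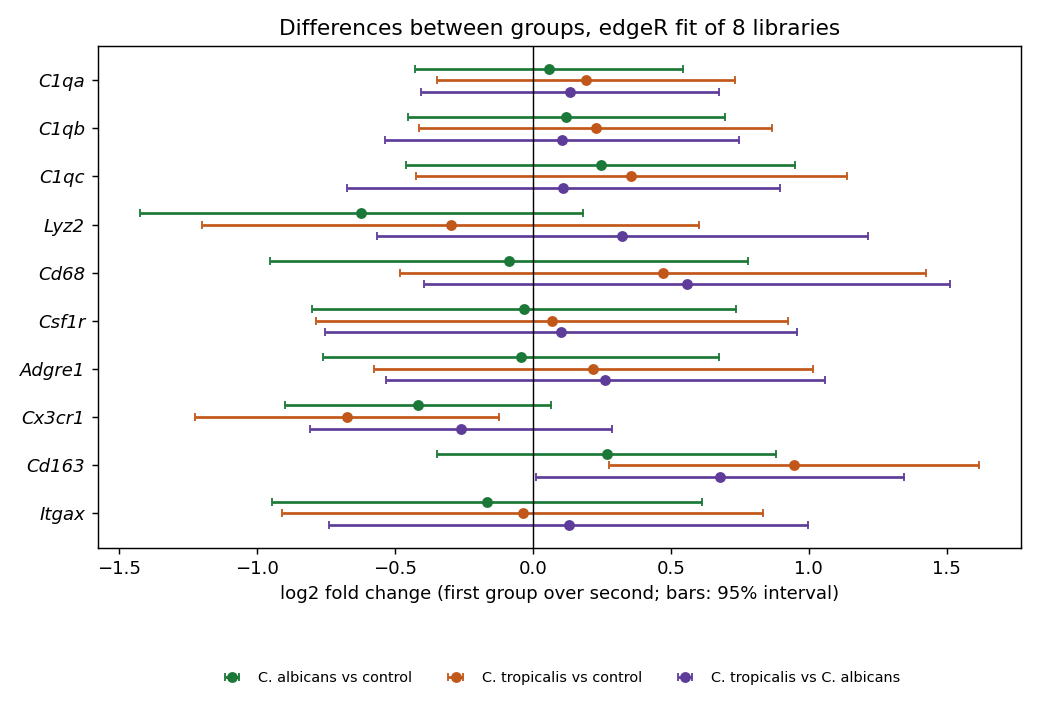
Log2 fold change (x axis, first group over second) of each gene in the 3 comparisons, from 1 edgeR fit of 8 libraries, with 95% intervals. The intervals of Cd163 (C. tropicalis against control and against C. albicans) and of Cx3cr1 (C. tropicalis against control) leave out 0 before adjustment for 16107 genes, and no gene passed after it.

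Libraries of 1 group often differed by more than the group means did. For 8 of the 10 genes the highest control exceeded the lowest control by a larger factor than the highest group mean exceeded the lowest, with Cd163 and Cx3cr1 as the other 2. Means vary less than single libraries do, so this count is only a description, and its share over all tested genes is not given. Control 3 lay above control 1 in all 10 genes, by 1.03 to 2.62 times, C. tropicalis 1 above C. tropicalis 2 in all 10, by 1.01 to 1.71 times, and C. albicans 1 above C. albicans 3 in 9 of 10. Control 1 was the lowest library for 5 genes, while C. tropicalis 1 was the highest for 6 and control 3 for 4. The shares of all tested genes for these counts between libraries are not given either. The 10 genes are also not separate observations, since the C1q chains, for example, had pairwise r from 0.934 to 0.973. The mean standardised level of the 10 genes was -1.16, -0.01 and 0.95 SD in control, 0.57, -0.24 and -0.75 with C. albicans and 0.93 and -0.28 with C. tropicalis. The smooth muscle score (mean log2 CPM of its 18 genes, centred) was 0.50, 0.12 and -0.53 in the same controls, -0.05, 1.40 and 0.64 with C. albicans and -1.21 and -0.86 with C. tropicalis. With that score as a covariate, the median log2 fold change of the 10 genes was 0.32 with C. albicans, -0.26 with C. tropicalis and -0.65 between the species, so that it turned sign in each comparison. Both C. tropicalis scores lay below that of control 3, the lowest of the others, and C. albicans 2 and 3 had the highest. Group and muscle score thus ran together, and the fit with the covariate cannot tell them apart.

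**Figure D5:**
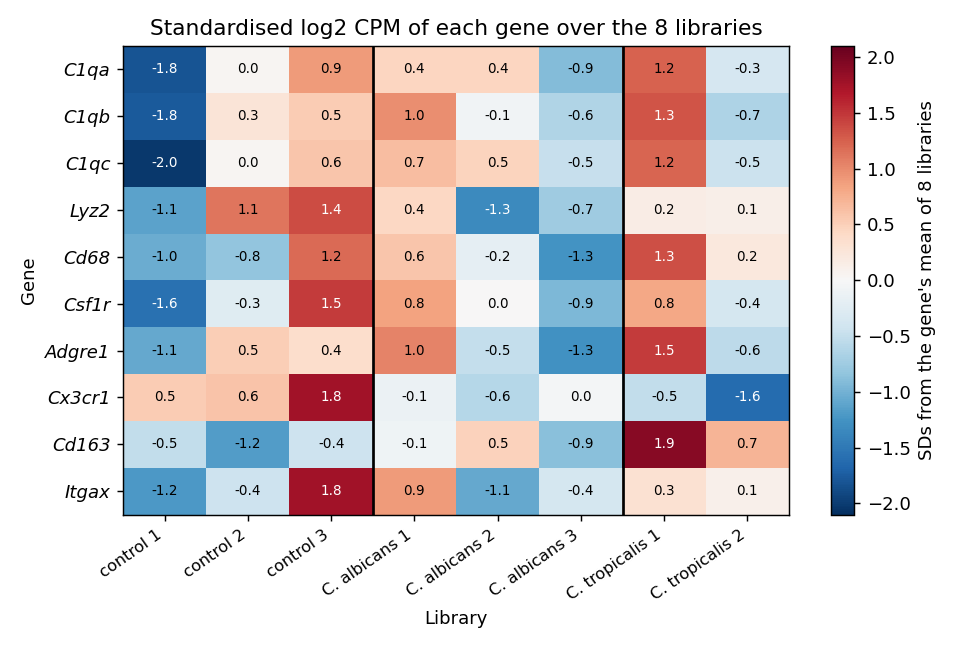
Log2 CPM of each gene (rows) in each library (columns), as SDs from that gene's mean over the 8 libraries (colour and number). The 3 C1q rows share their pattern, with control 1 between -2.02 and -1.76, and Cd163 and Cx3cr1 differ from the other rows.

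The genes whose log2 CPM ran most like the mean of the 10, among 13273 candidates at a mean CPM of at least 1, were Dele1 (Pearson r = 0.979, Spearman rho = 0.976 over 8 libraries), Wasf2 (0.966 and 0.952), Pi16 (0.954 and 0.905) and Zfp174 (0.953 and 0.929). Eif4ebp2, Agpat3, Kremen1 and Cyb561a3 came next, with r from 0.934 to 0.946. For the C1q chains alone they were Josd1 (r = 0.952), Tbc1d9b (0.951), Car7 (0.948), Qpctl (0.946) and Gpr108 (0.943). These values describe 8 libraries that share their composition, and they are the top of a long ranking. Pi16 is also in the fibroblast list.

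Other genes that gut macrophages express were measured in a list of 34, of which 32 were tested and 0 passed in any comparison. With C. albicans 13 lay above control and 19 below (median log2 fold change -0.08), with C. tropicalis 17 above and 15 below (0.02). For this list and those that follow, 51.8% and 52.1% of all tested genes lay below control in these comparisons. Axl, a receptor for the uptake of dying cells that stromal cells express too, stood at 71.3, 83.3 and 66.8 CPM in control, at 93.7, 116 and 98.9 with C. albicans and at 68.9 and 55.9 with C. tropicalis. All C. albicans libraries thus lay above the others (log2 0.48 ± 0.14 against control, edgeR adjusted p = 0.237). C. tropicalis lay below C. albicans by -0.72 ± 0.17 (edgeR adjusted p = 0.0669). Selenop, a selenium transport protein, had a log2 fold change of -0.48 ± 0.21 with C. albicans (edgeR adjusted p = 0.316). Cd14, the co-receptor for lipopolysaccharide, stood at 30.8, 43.5 and 52.4 CPM in control, at 39.1, 29.8 and 36.9 with C. albicans and at 68.0 and 62.9 with C. tropicalis, so that both C. tropicalis libraries were the highest. Its log2 difference was 0.63 ± 0.21 from control (edgeR adjusted p = 0.259) and 0.89 ± 0.21 from C. albicans (edgeR adjusted p = 0.0682). F13a1, coagulation factor XIII A and a gene of tissue macrophages, stood at 2.17, 2.98 and 4.302 CPM in control and at 6.57 and 5.95 with C. tropicalis (log2 0.99 ± 0.33, edgeR adjusted p = 0.258).

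The rest of the complement cascade, with its regulators and receptors, was a list of 28, of which 22 were tested and 0 passed in any comparison. With C. albicans 9 lay above control and 13 below (median -0.08), with C. tropicalis 10 above and 12 below (-0.06). The proteases that bind C1q, named for that role, differed little between groups: C1ra had log2 fold changes of -0.09 ± 0.20 and 0.13 ± 0.22, and C1s1 of 0.06 ± 0.18 and 0.02 ± 0.20, with C. albicans and C. tropicalis. C3, the central component that all pathways cleave, stood at 98.99, 127 and 168 CPM in control, at 104, 98.2 and 135 with C. albicans and at 82.97 and 60.2 with C. tropicalis. The C. tropicalis libraries were the lowest (log2 -0.88 ± 0.25 against control, edgeR adjusted p = 0.219). Cd55, a membrane inhibitor that dissolves the C3 convertases, stood at 16.96, 25.2 and 32.1 CPM in control, at 15.6, 16.01 and 12.5 with C. albicans and at 31.75 and 39.5 with C. tropicalis. All C. albicans libraries were below the controls (log2 -0.75 ± 0.23, edgeR adjusted p = 0.237), and C. tropicalis was higher than C. albicans by 1.28 ± 0.25 (edgeR adjusted p = 0.0646). Cfb, the protease of the alternative pathway, had a log2 fold change of -1.12 ± 0.37 with C. albicans (edgeR adjusted p = 0.255). Masp1, a protease of the lectin pathway, had -2.12 ± 0.71 with C. tropicalis (edgeR adjusted p = 0.258), on 200 counts in all.

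Ligands and partners of the receptors among the 10 genes were a list of 14, of which 12 were tested and 0 passed. With C. albicans 5 lay above control and 7 below (median -0.08), with C. tropicalis 3 above and 9 below (-0.21). Of the ligands of CSF1R, named for that role, Csf1 had log2 fold changes of -0.09 ± 0.23 with C. albicans and -0.22 ± 0.26 with C. tropicalis. Il34 had 0.15 ± 0.26 and 0.65 ± 0.28 (edgeR adjusted p = 0.323 for the latter). Cx3cl1, the ligand of CX3CR1, stood at 102.5, 147 and 161 CPM in control, at 155, 133 and 157 with C. albicans and at 194 and 149 with C. tropicalis, with log2 fold changes of 0.12 ± 0.19 and 0.33 ± 0.21. Its colonized groups overlapped control, where those of its receptor gene Cx3cr1 did not. Ccl2, which draws monocytes, stood at 0.514, 3.69 and 1.45 CPM in control, at 0.618, 0.420 and 0.122 with C. albicans and at 0.457 and 0.283 with C. tropicalis (log2 -2.25 ± 0.75 and -2.32 ± 0.88, edgeR adjusted p = 0.258 and 0.285). Csf2ra, a receptor chain for GM-CSF, had log2 0.61 ± 0.28 with C. albicans (edgeR adjusted p = 0.332), and Hp, the haptoglobin gene whose product CD163 clears, had -2.43 ± 1.32 between C. tropicalis and C. albicans (edgeR adjusted p = 0.307).

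No marker of other myeloid cells passed the test. Of 20 genes of monocytes and inflammatory macrophages 15 were tested, of 15 dendritic cell genes all 15 and of 18 genes of neutrophils, mast cells and eosinophils 7, and 0 passed in any comparison. The neutrophil genes S100a8, S100a9, Mpo and Elane had 6, 4, 5 and 1 counts in the 8 libraries together, and Csf3r had 175. Ly6g, also used as a marker of neutrophils, was at 28.8, 172 and 133 CPM in control, at 155.9, 21.6 and 77.4 with C. albicans and at 225 and 234 with C. tropicalis. Both C. tropicalis libraries were the highest (log2 1.04 ± 0.77 against control, edgeR adjusted p = 0.531). With S100a8, S100a9, Mpo and Elane near 0, Ly6g is not read here as a level of neutrophils. Which cells gave its reads was not tested. Fn1, the fibronectin gene, had a log2 fold change of 0.83 ± 0.22 with C. albicans (edgeR adjusted p = 0.203) and was lower with C. tropicalis than with C. albicans in every library (-1.37 ± 0.25, edgeR adjusted p = 0.0646). Plac8, a gene of monocytes that colon epithelium also expresses, had 0.47 ± 0.15 with C. tropicalis (edgeR adjusted p = 0.2502). Thbs1, the thrombospondin gene, had -1.89 ± 0.65 between the species (edgeR adjusted p = 0.1295). Kit, a gene of mast cells and of pacemaker cells in gut muscle, had -1.29 ± 0.36 with C. tropicalis (edgeR adjusted p = 0.215). Ccr7, the homing receptor of migrating dendritic cells, was at 0.685, 17.3 and 10.4 CPM in control, and Fscn1, a gene of the same cells, had -0.91 ± 0.38 with C. tropicalis (edgeR adjusted p = 0.308). Dendritic cell genes lay below control in 14 of 15 cases with C. albicans (median log2 fold change -0.28) and in 11 of 15 with C. tropicalis (-0.21). Of all tested genes, 51.8% and 52.1% lay below control, each time with a median of -0.02. The dendritic cell genes summed to 132, 206 and 228 CPM in control, 178, 137 and 165 with C. albicans and 149.5 and 150.04 with C. tropicalis. Control 1 thus had the lowest sum of all libraries, and control 2 and control 3 the highest. The part of this sum in the values of Itgax, which dendritic cells share, was not tested.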

How the data were processed

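Counts were deposited by the authors as whole numbers of reads per Ensembl gene, not normalized. Build mm10 and the tools TopHat2 2.0.12, DESeq 1.18.0 and HTSeq (listed as 6.1) come from the submitters' processing notes. The annotation used, any filter and the strand option: not given in the sources used here. The NEBNext Ultra RNA kit, per the labels' protocols, does not keep the strand. Symbols came from GENCODE M21 (52489 of 52636 identifiers; the other 147 held 0.00317% of counts), and sequences from RefSeq.

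All 8 libraries entered 1 fit in edgeR 4.0.16 (R 4.3.3), normalized by TMM, filtered by filterByExpr with the 3 groups, and tested by quasi-likelihood. P-values were adjusted by Benjamini-Hochberg over 16107 genes, with a threshold of 0.05. Each SE is the log2 fold change divided by the square root of F. Total counts were 16195376 to 19761098, so 0 counts allow 0.152 to 0.185 CPM (3 counts, counting error only). The fit was tested on simulated data.

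The members and lists were chosen with earlier results of these data known. Genes named beyond the members were, in each list, taken from those the rule gave (up to 4 past the threshold or else the 2 with the smallest p), the genes with the highest correlation to the members (8, and 5 for C1q), and Lyz1. Of the context lists (muscle, neurons, fibroblasts, B cells, MHC class II, Paneth cells, epithelium) sums, or only the genes that set libraries apart, are given. Csf1, Cx3cl1, C1ra, C1s1, Ly6g, Csf3r, Pla2g2a, Mmp7 and the genes at or near 0 were named for their role after their values were seen.

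Alternatives were DESeq2 1.42.0 as test and as size factors, upper-quartile factors, limma-voom (limma 3.58.1), no filter, a filter of CPM of at least 1 in 3 libraries, the 2 groups alone, a replicate block, a smooth muscle covariate and each library left out. The labels do not say whether replicate numbers pair libraries. Deviations from group means had correlations from -0.392 to 0.156 for same-numbered libraries and from -0.295 to 0.362 for the others. With so few libraries per group, these values cannot decide whether libraries were paired. No pair within a group had counts alike within sampling noise (chi-square per degree of freedom of at least 21.0). Figures used matplotlib 3.10.9.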

Additional observations from a re-analysis of the deposited data

How the results depend on the processing

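No member passed under any alternative: of 510 member estimates (30 log2 fold changes, each under 17 alternatives) 0 were past the threshold, with adjusted p of 0.127 or more. The sign turned under at least 1 alternative for 22 of the 30, and 8 kept it, among them Cd163 and Cx3cr1 in all 3 comparisons. The cause was not tested. The count of all genes past the threshold, which is only the background here, was 461, 393 and 1737 by DESeq2 (C. albicans, C. tropicalis and C. tropicalis against C. albicans, beside 7, 5 and 0), and 119, 71 and 1127 with no filter. It was 0 and 0 for the first 2 with the replicate block. It was 11 and 0 with the smooth muscle covariate, and for the groups compared alone 0 with C. tropicalis and 858 between the species. Leaving out 1 library moved it between 0 and 254 with C. albicans (C. albicans 3 and C. albicans 1 left out), between 0 and 192 with C. tropicalis (192 with control 3 left out) and between 0 and 1315 for the species (1315 with C. albicans 1 left out). The members' median ran from -0.25 (without control 1) to 0.30 (without control 3) with C. albicans. For C. tropicalis it ran from -0.12 to 0.47, and between the species from -0.14 to 0.38, each time without C. tropicalis 1 for the lowest and without C. tropicalis 2 for the highest value. With the smooth muscle covariate the median between the species was -0.65, in a fit that cannot tell group from muscle content. With the replicate block the members' medians were -0.0029, 0.21 and 0.18 and no member passed (lowest adjusted p = 0.303). The labels give same-numbered libraries no link beyond the number. A group left with 1 C. tropicalis library is assumed to vary like the others. The level of C1qc per kilobase was 36.9 with the longest transcript and 23.0 with all exons. Counts were lowest for Cd163 and Adgre1, at 42 to 124 per library.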
